A study of Homo sapiens with 16 samples.

Results

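The mRNA levels of 5 genes of acute-phase and inflammation-induced secreted proteins, SAA1, SAA2, LCN2, SERPINA1 and SERPINA3, were followed through 16 RNA sequencing libraries of A549 and H2023. The genes were chosen by symbol, and all 5 of the 5 were found among the 18227 genes of the deposited tables. They had been put together with the differences between libraries labelled knockout and wild-type libraries already in view, so those differences are given below as a description, without a test. Both are human cell lines established from non-small cell lung cancers, and in each a knockout of ZC3H12A was set against the wild type. The product of ZC3H12A is Regnase-1, a ribonuclease that degrades certain mRNAs, including those of inflammatory genes. Cells of each genotype had 3 days of normal culture, or 7 days in the stem cell enriched (oncosphere) condition, so culture and days change together. Line, genotype and culture make 8 groups with 2 libraries in each. The titles name 1 clone for each line (g2-3 in A549, g2-1 in H2023) in all libraries labelled knockout, so these differences hold the edit together with whatever else sets that clone apart. Nothing in the labels says whether the 2 libraries of a group came from separate cultures, so p-values measure the spread between these libraries, which may be technical.

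The acute-phase response is the change in secreted plasma proteins that follows infection or injury, driven mainly by IL-6 and IL-1 through the transcription factors STAT3, NF-κB and C/EBP. The liver is its main source, but airway epithelium and tumour cells of the lung make several of these proteins as well. SAA1 and SAA2 are the inducible serum amyloid A apolipoproteins, LCN2 is a lipocalin that binds bacterial siderophores and so withholds iron, SERPINA1 (α1-antitrypsin) inhibits neutrophil elastase, and SERPINA3 (α1-antichymotrypsin) inhibits chymotrypsin-like proteases such as cathepsin G.

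The libraries were first checked against their labels. ZC3H12A mRNA stood at 30.72 and 34.88 TPM (transcripts of a gene in a fixed total of transcripts, a level that takes gene length into account) in A549 wild type in normal culture, against 16.9 and 19.93 in the libraries labelled knockout. In the other 3 comparisons the libraries labelled knockout had more of it, as far as 94.61 and 69.18 TPM against 32.54 and 26.41 in H2023 oncospheres. An mRNA that carries a small edit can still be made, so the level checks the label only in part, and the term "labelled knockout" is kept throughout. Of 6 epithelial markers, the keratins KRT7, KRT8 and KRT18 and the cadherin CDH1 were above 1 TPM in 16 of 16 libraries. The other two fell below 1 TPM in some: the keratin KRT19 reached 1 TPM in 14 libraries (lowest 0.29) and the adhesion molecule EPCAM in 13 (lowest 0.37). Of 5 lung epithelial markers only NAPSA, at 1.02 to 6.03 TPM, was measured, and NKX2-1, SFTPB, SFTPC and SCGB1A1 were not analysed here. Replicates of a group correlated at Pearson r of 0.983 to 0.992 across genes. Mitochondrially encoded genes held 10.3 to 18.7% of the TPM in normal culture and 19.5 to 25.6% in oncospheres, so every other gene shares a smaller remainder in oncospheres. TPM keeps no read depth. As a scale for it, the mean normalized count of LCN2 in the authors' deposited table was 135.2 in H2023 normal culture and 11300 in H2023 oncospheres, while that of SERPINA3 was 3.89 and 6.82 in the same tables.

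The 5 genes lie at 3 places in GRCh38 (GENCODE v29 annotation). LCN2 is at chr9:128149071-128153455 on the plus strand. SAA2 at chr11:18239223-18248643 (minus strand) and SAA1 at chr11:18266174-18269977 (plus strand) face away from each other, 17530 bases apart. SERPINA1 at chr14:94376747-94390693 (minus strand) and SERPINA3 at chr14:94612377-94624055 (plus strand) belong to one serpin cluster, with 221683 bases between them. SAA1 and SAA2 are close relatives, which limits how well their reads can be told apart. Over 366 coding bases of the transcripts SAA1-201 and SAA2-201, 11 differed (96.99% identical). Of all stretches of 50 bases in SAA1-201, 34.1% occur unchanged in an SAA2 transcript, and 37.5% the other way round. Coding bases 151 to 366, counted from the first base of the start codon, are printed because they hold 10 of the 11 differences, which are in capitals:
SAA1: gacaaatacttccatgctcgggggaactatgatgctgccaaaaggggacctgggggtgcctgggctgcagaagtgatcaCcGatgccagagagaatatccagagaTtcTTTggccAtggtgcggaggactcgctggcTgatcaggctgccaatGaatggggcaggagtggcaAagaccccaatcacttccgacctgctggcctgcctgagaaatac
SAA2: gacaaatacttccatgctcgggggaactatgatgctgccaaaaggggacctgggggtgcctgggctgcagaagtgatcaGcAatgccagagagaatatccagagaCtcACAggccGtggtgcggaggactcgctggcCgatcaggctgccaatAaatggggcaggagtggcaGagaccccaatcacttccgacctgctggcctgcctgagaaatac
A long run of identical bases opens this stretch and another closes it, so a read from either run can be assigned to either gene. The levels of SAA1 and SAA2 are therefore uncertain as a split, and their sum is used as a check below.

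Promoter sequence of LCN2, SERPINA1 and SERPINA3 was taken from RefSeq (GRCh38.p14). The 250 bases before each start were searched on both strands for NF-κB (GGG and CC with 5 bases between), C/EBP (TTNNGNAA) and STAT3 (TTCNNNGAA) letters. LCN2 is shown because it reached the highest level of the 5 genes. The stretch chr9:128149265-128149440, plus strand, is the part of its window outside annotated exons, with the matches in capitals:
LCN2: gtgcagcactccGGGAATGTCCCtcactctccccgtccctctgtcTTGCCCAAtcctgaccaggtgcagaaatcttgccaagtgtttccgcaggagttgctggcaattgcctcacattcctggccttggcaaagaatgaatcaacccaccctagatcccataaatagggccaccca
The first capitals are an NF-κB match at -176 to -167 on one strand, overlapped by a match at -175 to -166 on the other. The second capitals are a C/EBP match at -143 to -136. SERPINA3 held an NF-κB match at -67 to -58 that overlaps a C/EBP match at -63 to -56. Of its 2 RefSeq starts, SERPINA1 had a C/EBP match at -202 to -195 of 1 start. These letters are common: among 35116 promoter windows of the same length 54.4% held the NF-κB letters, 33.2% the C/EBP letters and 6.57% the STAT3 letters. The matches describe the sequence and were not tested for binding.

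LCN2 had the widest range of the 5 genes, from under 1 TPM to the 26th highest level of all genes in a library. In A549 wild type it stood at 77.67 and 142.9 TPM in normal culture and at 1135.91 and 846.82 in oncospheres. In the A549 libraries labelled knockout it stood at 0.89 and 0.66 TPM in normal culture and at 160.38 and 52.37 in oncospheres. The labelled knockout libraries were thus the low ones in both cultures of A549, without overlap with wild type.

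H2023 gave another order. LCN2 was at 13.45 and 14.4 TPM in wild type and at 19.16 and 10.87 in the libraries labelled knockout in normal culture, where the groups overlapped. In oncospheres the wild-type libraries had 183.25 and 239.91 TPM and the libraries labelled knockout 1281.08 and 2849.05, the highest LCN2 values of the 16. In H2023 oncospheres the labelled knockout libraries were the high ones, opposite to A549.

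SAA1 was a gene of moderate level except in one group. In A549 it stood at 16.37 and 20.7 TPM in wild type and at 3.13 and 0.36 in the libraries labelled knockout in normal culture. In A549 oncospheres it was at 16.64 and 17.83 TPM in wild type and at 34.06 and 13.73 in the libraries labelled knockout. The A549 groups were apart in normal culture and overlapped in oncospheres. In H2023 normal culture SAA1 was at 2.16 and 3.5 TPM in wild type and at 10 and 8.84 in the libraries labelled knockout. In H2023 oncospheres the wild-type libraries had 2.18 and 7.88 TPM and the libraries labelled knockout 148.54 and 175.24. That last group stood apart from all 7 others, the next highest library being one of A549 oncospheres.

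SAA2 followed SAA1 at a lower level. In A549 normal culture it was at 6.45 and 12.03 TPM in wild type and at 1 and 0.23 in the libraries labelled knockout, and in A549 oncospheres at 7.14 and 11.38 against 17.72 and 8.97. In H2023 normal culture it was at 0.5 and 0.09 TPM in wild type and at 3.92 and 2.15 in the libraries labelled knockout, and in H2023 oncospheres at 0.75 and 4.89 against 102.04 and 99.72. SAA2 was below SAA1 in 16 of 16 libraries. The ratio of SAA2 to SAA1 had a median of 0.475, and it lay between 0.243 and 0.687 in the 11 libraries where the 2 genes summed to 10 TPM or more.

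SERPINA1 was near the floor in normal culture. It lay between 0.04 and 0.96 TPM in all 8 libraries of normal culture, whatever the line or label. In oncospheres A549 wild type had 70.41 and 48.23 TPM and the A549 libraries labelled knockout 3.05 and 0.46. H2023 oncospheres had 11.72 and 14.24 TPM in wild type and 8.56 and 5.76 in the libraries labelled knockout. The wild-type libraries of the oncospheres were the high ones in both lines, without overlap.

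SERPINA3 separated the lines. In A549 normal culture it was at 3.06 and 3.62 TPM in wild type and at 1.55 and 1.11 in the libraries labelled knockout. In A549 oncospheres it was at 275.35 and 135.55 TPM in wild type and at 81.88 and 153 in the libraries labelled knockout, which overlapped. In H2023 it was at 0.18 and 0.32 TPM in wild type and at 0.09 and 0 in the libraries labelled knockout in normal culture. In H2023 oncospheres it stayed at 0.41 and 0.43 TPM in wild type and at 0.12 and 0.13 in the libraries labelled knockout. All 8 H2023 libraries were thus under 1 TPM, so a fold between them says little.

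**Figure D1:**
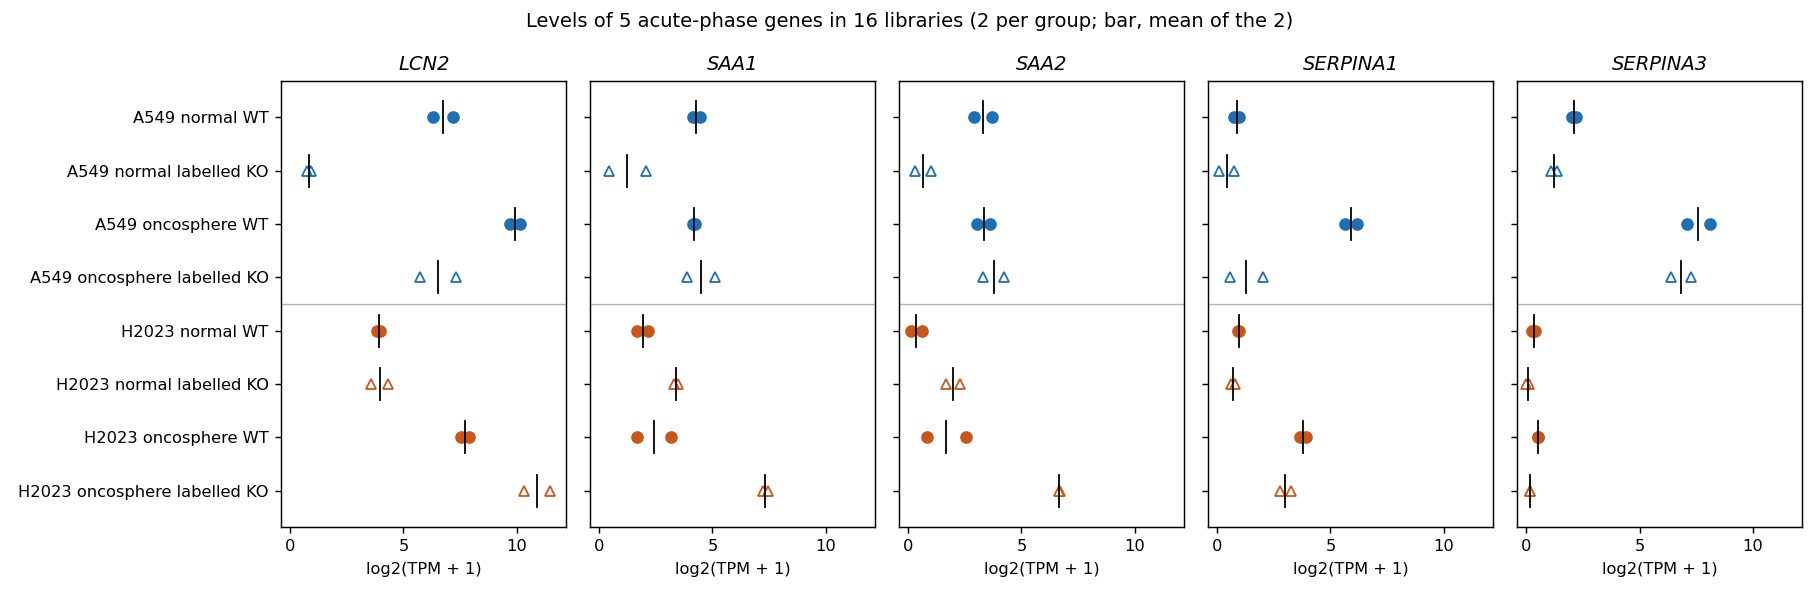
Level of each gene in every library, as log2(TPM + 1) on the horizontal axis, with 1 row per group (circles, wild type; triangles, labelled knockout; blue, A549; orange, H2023; bar, mean of the 2 libraries). LCN2, SAA1 and SAA2 are highest in the H2023 oncosphere libraries labelled knockout, and SERPINA1 and SERPINA3 in A549 oncospheres of wild type.

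Ordered by group mean, the 5 genes did not share one order. The H2023 oncosphere libraries labelled knockout came first for SAA1 (161.9 ± 18.9 TPM, SD, n = 2), SAA2 (100.9 ± 1.64 TPM, SD, n = 2) and LCN2 (2065 ± 1109 TPM, SD, n = 2), apart from the next group each time. Wild-type oncospheres of A549 came first for SERPINA1 (59.3 ± 15.7 TPM, SD, n = 2), apart from the next group, and for SERPINA3 (205.5 ± 98.9 TPM, SD, n = 2), overlapping with the A549 oncospheres labelled knockout. For SAA1 places 2 to 4 (A549 oncospheres of both labels and A549 wild type in normal culture) overlapped as neighbours, as did places 6 to 8. For SAA2 places 2 to 4 and places 5 to 8 overlapped in the same way. For LCN2 places 4 and 5 (A549 wild type in normal culture and A549 oncospheres labelled knockout) and places 6 and 7 (H2023 normal culture) overlapped. For SERPINA1 each place from 4 on overlapped with the next. The lowest group was A549 normal culture labelled knockout for SAA1, LCN2 and SERPINA1, H2023 wild type in normal culture for SAA2, and H2023 normal culture labelled knockout for SERPINA3.

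The move from normal culture to oncospheres was compared within each line and label. LCN2, the iron-withholding lipocalin, rose in all 4 of these comparisons, SERPINA1 in 3, SAA1, SAA2 and SERPINA3 in 2 each, and no member fell. Of all genes 21.6% fell in A549 wild type, 9.87% in A549 labelled knockout, 17.4% in H2023 wild type and 19.2% in H2023 labelled knockout. Differences are on the log2(TPM + 1) scale, tested with limma across all 18227 genes of the line's 8 libraries with Benjamini-Hochberg adjustment. The scale understates the change of a low gene. The libraries are those of the contrasts that chose the genes, so the tests are not independent of the choice, least of all where the H2023 oncosphere libraries labelled knockout enter.

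In A549 wild type LCN2 rose by 3.21 ± 0.48 (SE, limma adjusted p = 0.00131), which is 8.99 times the mean TPM of normal culture. SERPINA1 rose by 5.04 ± 0.46 (limma adjusted p = 1.59e-04) and SERPINA3 by 5.49 ± 0.36 (limma adjusted p = 5.66e-05), 73.2 and 61.5 times the mean TPM. In each of the 3 genes both oncosphere libraries were above both normal libraries. The serum amyloid genes did not pass: SAA1 differed by -0.09 ± 0.53 (limma adjusted p = 0.909) and SAA2 by 0.03 ± 0.41 (limma adjusted p = 0.967), with overlapping libraries. These are 3 of 5 members called higher, where 19% of all genes were.

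In the A549 libraries labelled knockout the serum amyloid genes passed the test and SERPINA1 did not. SAA1 rose by 3.26 ± 0.53 (limma adjusted p = 0.00435), SAA2 by 3.12 ± 0.41 (limma adjusted p = 0.00183), LCN2 by 5.71 ± 0.48 (limma adjusted p = 3.59e-04) and SERPINA3 by 5.61 ± 0.36 (limma adjusted p = 1.87e-04). SERPINA1 differed by 0.88 ± 0.46 (limma adjusted p = 0.226) with overlapping libraries, and by 1.61 (limma adjusted p = 0.0319) when the second oncosphere library labelled knockout was left out. That is 4 of 5 members called higher, against 10.9% of all genes. In these libraries SAA1 started from the lowest group mean of the 8 and ended beside wild type, at 23.9 against 17.2 TPM in oncospheres. Whether the culture difference of a gene differs between the labels was not tested, since the knockout contrast chose the genes.

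In H2023 wild type LCN2 rose by 3.82 ± 0.41 (limma adjusted p = 0.00331) and SERPINA1 by 2.85 ± 0.22 (limma adjusted p = 0.00165), 15.2 and 13.9 times the mean TPM of normal culture. SAA2 differed by 1.33 ± 0.56 (limma adjusted p = 0.139), SAA1 by 0.49 ± 0.46 (limma adjusted p = 0.482) and SERPINA3 by 0.19 ± 0.09 (limma adjusted p = 0.175). The 2 wild-type oncosphere libraries of H2023 disagreed on the serum amyloid genes, the first being the lower one. Without the first, SAA1 differed by 1.24 (limma adjusted p = 0.0358) and SAA2 by 2.20 (limma adjusted p = 0.021). The members called higher were 2 of 5, against 3.96% of all genes. The median of all genes was below 0 here, at -0.18. Of all genes 721 rose and 3180 fell, and after each library was centred on its median gene, a shift of 0.25, 1455 rose and 1260 fell. With that centring SERPINA3 passed as well (difference 0.44, limma adjusted p = 0.034), at levels that stayed under 1 TPM.

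In the H2023 libraries labelled knockout 4 of 5 members rose, against 7.68% of all genes. SAA1 rose by 3.96 ± 0.46 (limma adjusted p = 0.0023), SAA2 by 4.69 ± 0.56 (limma adjusted p = 0.00246) and LCN2 by 6.95 ± 0.41 (limma adjusted p = 4.17e-04). In mean TPM these are 17.2, 33.2 and 137.5 times the level of normal culture. SERPINA1 rose by 2.32 ± 0.22 (limma adjusted p = 0.00123), and SERPINA3 differed by 0.11 ± 0.09 (limma adjusted p = 0.405). The median of all genes was -0.12. Among all genes 1400 rose and 3495 fell, and with the centring, a shift of 0.15, 2145 rose and 2322 fell.

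**Figure D2:**
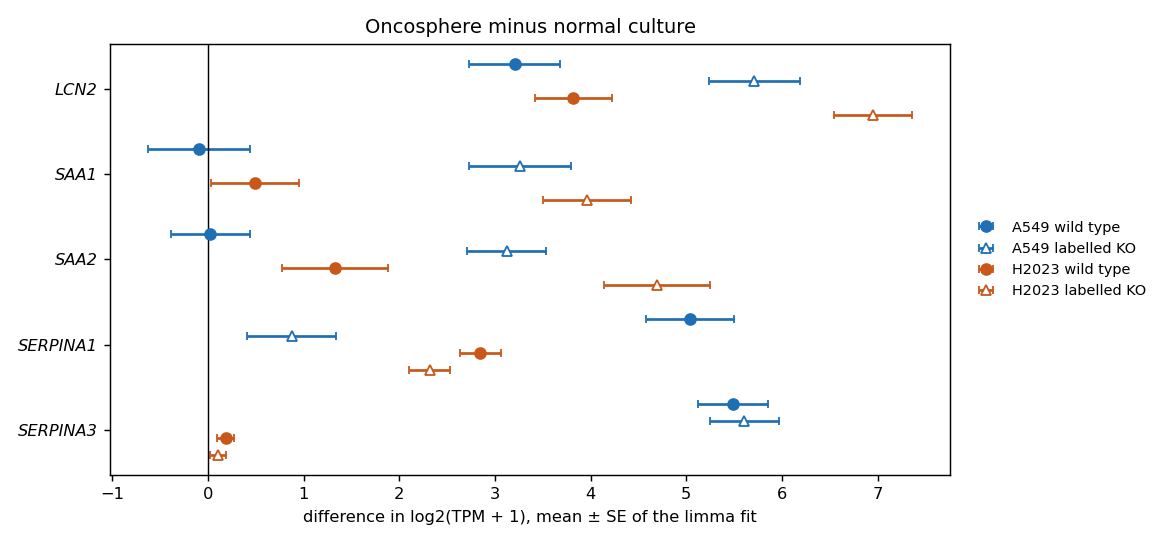
Difference in log2(TPM + 1) between oncosphere and normal culture for each gene, with the standard error of the limma fit as bars (circles, wild type; triangles, labelled knockout; blue, A549; orange, H2023). LCN2 lies between 3.21 and 6.95 in all 4 comparisons, SAA1 and SAA2 are above 3 only in the libraries labelled knockout, and SERPINA3 is above 5 in A549 and below 0.2 in H2023.

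The lines were then compared in wild type. In normal culture 4 of 5 members were lower in H2023 than in A549, against 15.4% of all genes. SAA2 was lower by a log2 difference of -2.95 ± 0.37 (limma adjusted p = 6.69e-04), LCN2 by -2.83 ± 0.32 (limma adjusted p = 4.37e-04), SAA1 by -2.36 ± 0.46 (limma adjusted p = 0.00502) and SERPINA3 by -1.80 ± 0.16 (limma adjusted p = 1.62e-04). SERPINA1, low in both lines, differed by 0.10 ± 0.22 (limma adjusted p = 0.744). The fit used the 8 libraries of a culture. Across all genes 4915 were higher and 2808 lower in H2023, and 3315 and 4499 with centring, which shifts the median by -0.21.

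In oncospheres all 5 members were lower in H2023 wild type, against 22.1% of all genes. SERPINA3 was lower by -7.10 ± 0.37 (limma adjusted p = 5.28e-05), LCN2 by -2.22 ± 0.54 (limma adjusted p = 0.0147), SERPINA1 by -2.09 ± 0.45 (limma adjusted p = 0.00917), SAA1 by -1.78 ± 0.52 (limma adjusted p = 0.0286) and SAA2 by -1.65 ± 0.55 (limma adjusted p = 0.0461). Apart from SERPINA3, these calls were lost when some single libraries were left out. Without the first A549 wild-type oncosphere library the limma adjusted p was 0.104 for SAA1, 0.0923 for SAA2, 0.0872 for LCN2 and 0.0666 for SERPINA1. Without the second A549 library it was 0.114 for SAA1 and 0.203 for SAA2. Without the first H2023 library it was 0.123 for SAA1 (difference -1.04), 0.181 for SAA2 (difference -0.77) and 0.066 for LCN2. The call of SAA2 was also lost with a pseudocount of 0.1 TPM (limma adjusted p = 0.0513), with the replicate number as a block (0.0541) and with mitochondrial genes left out (0.0523).

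Whether the culture difference itself differed between wild-type lines was tested over 16 libraries. It was smaller in H2023 for SERPINA3, by -5.30 ± 0.45 (limma adjusted p = 7.02e-05), and for SERPINA1, by -2.19 ± 0.56 (limma adjusted p = 0.0236), where 10.3% of all genes were called lower. Over all genes 690 were called higher and 1884 lower here, against 1389 and 1103 with median centring and 924 and 1509 without mitochondrial genes. Both members kept their calls under these scalings. SERPINA1 lost its call with a pseudocount of 0.1 TPM (limma adjusted p = 0.177). It was also lost without the first library of H2023 oncospheres (0.0621), of A549 oncospheres (0.0864) or of A549 normal culture (0.0774), and without either library of H2023 normal culture (0.0567 and 0.0622). For LCN2 the difference between lines was 0.61 ± 0.69 (limma adjusted p = 0.599), for SAA1 0.59 ± 0.77 (limma adjusted p = 0.658) and for SAA2 1.30 ± 0.73 (limma adjusted p = 0.263). Without the first H2023 wild-type oncosphere library SAA2 differed by 2.18 (limma adjusted p = 0.043).

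The libraries labelled knockout are set against wild type as a description, because this contrast chose the genes. In A549 normal culture the 4 genes whose libraries did not overlap were all lower, at -5.91 ± 0.30 (SE) for LCN2, -3.03 ± 0.53 for SAA1, -2.65 ± 0.38 for SAA2 and -0.90 ± 0.20 for SERPINA3 in log2(TPM + 1). Among all genes 34.6% were lower without overlap there. SERPINA1 was at -0.45 ± 0.25 with overlapping libraries. In A549 oncospheres LCN2 was at -3.40 ± 0.51 and SERPINA1 at -4.61 ± 0.50, both without overlap, where 27.8% of all genes were lower without overlap. SERPINA3 was at -0.78 ± 0.42, SAA1 at 0.32 ± 0.40 and SAA2 at 0.44 ± 0.36 there, all with overlapping libraries.

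In H2023 the serum amyloid genes stood on the other side. In normal culture SAA1 was at 1.46 ± 0.24 and SAA2 at 1.62 ± 0.30, both without overlap, where 26.1% of all genes were higher without overlap. LCN2 was at 0.05 ± 0.29 with overlap, and SERPINA1 and SERPINA3 were both at -0.26, below wild type at levels under 1 TPM, where 24.5% of all genes were lower without overlap. In oncospheres SAA2 was at 4.99 ± 0.63, SAA1 at 4.93 ± 0.54 and LCN2 at 3.18 ± 0.45, where 28.6% of all genes were higher without overlap. SERPINA1 was at -0.79 ± 0.24 and SERPINA3 at -0.34 ± 0.07 there, where 18.9% of all genes were lower without overlap. The authors' deposited table gives a log2 fold change in H2023 oncospheres of 4.87 for SAA1, 4.73 for SAA2 and 3.21 for LCN2. For SAA1 the difference was higher in oncospheres than in normal culture by 3.35 in A549 and by 3.47 in H2023, for SAA2 by 3.10 and 3.37, and for LCN2 by 2.51 and 3.13. SERPINA1 went the other way, by -4.16 in A549 and -0.53 in H2023, and SERPINA3 differed by 0.12 and -0.08. These steps between cultures were not tested.

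**Figure D3:**
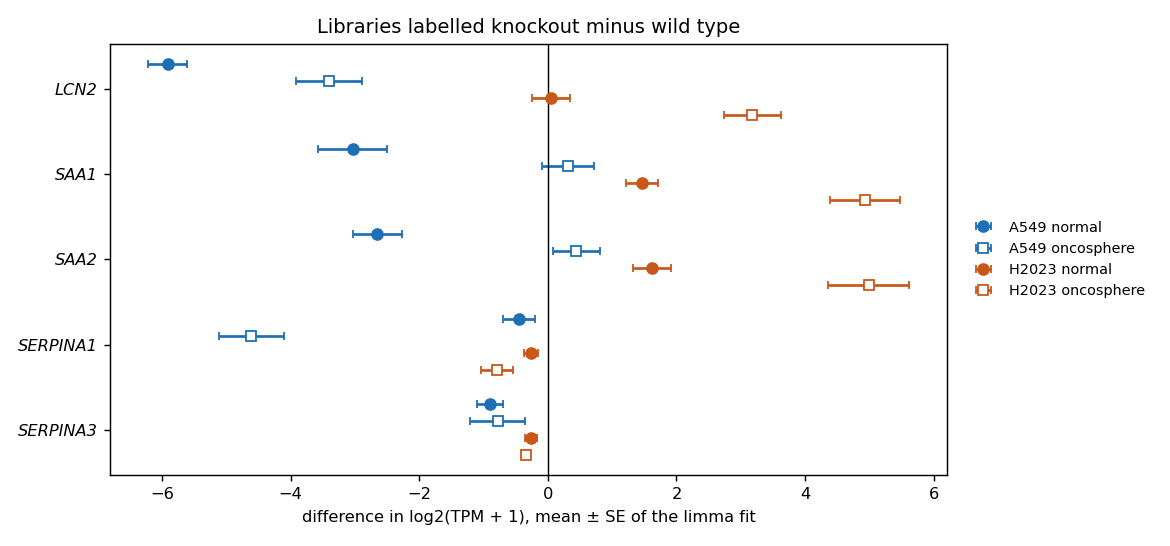
Difference in log2(TPM + 1) between libraries labelled knockout and wild type for each gene, with the standard error of the limma fit as bars (circles, normal culture; squares, oncospheres; blue, A549; orange, H2023). LCN2 runs from -5.91 in A549 normal culture to 3.18 in H2023 oncospheres, SAA1 and SAA2 from about -3 to about 5, and SERPINA1 and SERPINA3 are at or below 0 in all 4.

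The genes most like each member were ranked by Pearson r of log2(TPM + 1) over the 16 libraries, among 12558 genes. These libraries share groups, so the values describe them and carry no test. SAA1 and SAA2 were each other's first match (r = 0.974), and their next matches were TNIP1 (0.924 and 0.913) and NFKBIZ (0.905 and 0.959). TNIP1 encodes a partner of the NF-κB inhibitor A20, and NFKBIZ encodes IκBζ, a nuclear co-activator of NF-κB target genes that include LCN2. LCN2 was most like ARHGAP26 (0.955), CYSTM1 (0.954) and the carbonic anhydrase CA12 (0.937), and SAA2 came at place 180 of its order with r of 0.793. SERPINA1 was most like the glutathione transferase GSTA2 (0.985), C9orf152 (0.968) and the secreted ribonuclease RNASE4 (0.95), with LCN2 at place 309 (0.763). SERPINA3 was most like DCLK1 (0.967), the cargo receptor LMAN2 (0.967) and LOC283710 (0.961). SAA1 came at r of 0.175 with SERPINA3 and 0.312 with SERPINA1, so the 2 serpins and the 2 amyloid genes did not follow one pattern.

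NFKBIZ was itself a gene of the list of 21 signalling and transcription factors of the acute-phase response. It stood at 9.11 and 9.77 TPM in A549 wild type and at 4.12 and 5.55 in the libraries labelled knockout in normal culture, and at 12.75 and 9.38 against 12.36 and 11.23 in A549 oncospheres. In H2023 it was at 2.8 and 2.66 TPM in wild type and at 6.15 and 4.55 in the libraries labelled knockout in normal culture. In H2023 oncospheres it was at 4.3 and 7.8 TPM in wild type and at 24.78 and 31.32 in the libraries labelled knockout. The groups that were high in SAA1 were also the high ones in NFKBIZ, and its part in the levels of SAA1 was not tested. From normal culture to oncospheres NFKBIZ rose by 2.20 ± 0.28 in H2023 labelled knockout (limma adjusted p = 0.00306) and by 1.14 ± 0.20 in A549 labelled knockout (limma adjusted p = 0.00563).

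By the authors' deposited table, of 20 factors of that list 3 were higher in H2023 oncospheres labelled knockout and none was lower, where 2.22% and 2.85% of all genes were. They were NFKBIZ (log2 fold change 2.27, the authors' adjusted p = 5.13e-08), the IL-17 receptor adaptor TRAF3IP2 (0.90, the authors' adjusted p = 0.0183) and CEBPD, the C/EBPδ factor (0.80, the authors' adjusted p = 0.0058). In H2023 normal culture 1 was higher and 3 were lower, where 3.84% and 6.97% of all genes were. NFKBIZ was the higher one (log2 fold change 0.77, the authors' adjusted p = 0.0394), and CEBPB was lower (-1.01, the authors' adjusted p = 2.86e-07). In A549 normal culture 2 were higher and 8 were lower of 21 tested, where 11.2% and 10.9% of all genes were. In A549 oncospheres 1 was higher and 3 were lower of 21, near the 9.29% and 11.4% of all genes.

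HNF4A, a liver-type nuclear receptor that acts on many secreted-protein genes, was among the lower ones in A549. In normal culture it was at 9.99 and 15.46 TPM in wild type and at 0.39 and 2.05 in the libraries labelled knockout (log2 fold change -3.48 in the authors' deposited table, adjusted p = 0.00404). In A549 oncospheres it was at 22.74 and 28.12 TPM against 1.25 and 1.47 (log2 fold change -4.36 in the authors' deposited table, adjusted p = 1.84e-70). SERPINA1 was low in these A549 oncosphere libraries labelled knockout, at 3.05 and 0.46 TPM. It was also low in A549 wild type in normal culture, at 0.69 and 0.93 TPM, where HNF4A was at 9.99 and 15.46. The part of HNF4A was not tested. In H2023 oncospheres HNF4A was at 3.14 and 0.86 TPM in wild type and at 1.31 and 1.16 in the libraries labelled knockout, while SERPINA1 was above 5 TPM in all 4.

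**Figure D4:**
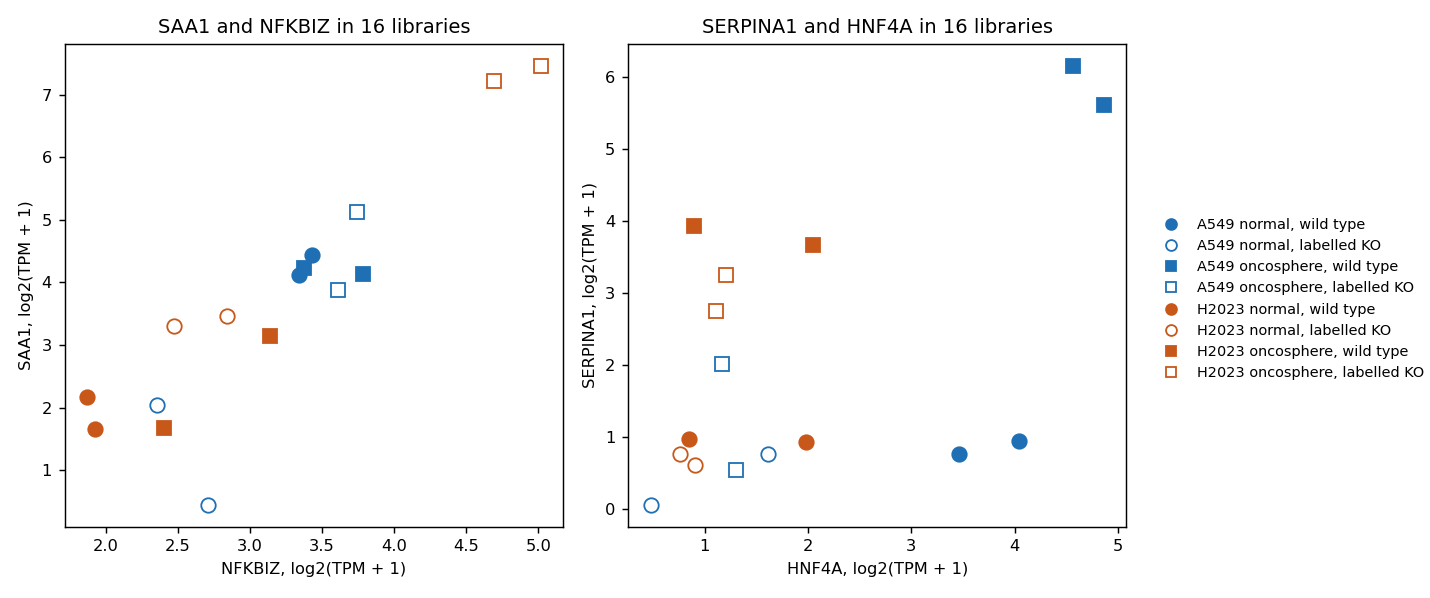
SAA1 against NFKBIZ (left) and SERPINA1 against HNF4A (right) in 16 libraries, both axes as log2(TPM + 1) (circles, normal culture; squares, oncospheres; filled, wild type; open, labelled knockout; blue, A549; orange, H2023). The 2 H2023 oncosphere libraries labelled knockout are highest in both SAA1 and NFKBIZ, and the 2 A549 wild-type oncosphere libraries are highest in both SERPINA1 and HNF4A; the pairs of genes were chosen after their values were seen.

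The inducing cytokines and receptors were measured for 16 genes. In H2023 oncospheres, where SAA1 was highest, none of 13 tested was called in either direction by the authors' deposited table. Of all genes 2.22% were called higher and 2.85% lower there, so none of 13 says little. In H2023 normal culture 2 of 12 were lower and none was higher, against 6.97% and 3.84% of all genes. In A549 oncospheres labelled knockout 5 of 16 were higher and 1 lower by the authors' deposited table, against 9.29% and 11.4% of all genes. In A549 normal culture 4 of 14 were higher and 2 lower in the authors' deposited table, against 11.2% and 10.9% of all genes. With limma 0% of all genes passed adjustment in either culture of H2023, while 15.5% in oncospheres and 18.2% in normal culture had an unadjusted p below 0.05. From normal culture to oncospheres 5 of the 16 were called higher and 1 lower by limma in A549 wild type. The counts were 5 and 0 in A549 labelled knockout, 0 and 1 in H2023 wild type and 1 and 0 in H2023 labelled knockout. Of all genes 19%, 10.9%, 3.96% and 7.68% were called higher in these comparisons, and 21.6%, 9.87%, 17.4% and 19.2% lower. IL1B rose with the culture in A549, by 2.12 ± 0.22 in wild type (limma adjusted p = 2.59e-04) from 0.39 and 0 to 4.68 and 3.6 TPM. It rose by 2.97 ± 0.22 in the libraries labelled knockout (limma adjusted p = 2.59e-04), to 8.95 and 7.73 TPM. The IL-6 receptor gene IL6R fell by 1.15 in A549 wild type (limma adjusted p = 0.00172), from 7.3 and 6.07 to 2.53 and 2.38 TPM.

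Other positive acute-phase proteins were taken as a list of 24 genes beside the 5, of which 16 were in the tables. In A549 wild type 13 of 16 rose from normal culture to oncospheres and 1 fell, where 19% and 21.6% of all genes did, with a median difference of 2.37 against -0.02 over all genes. C4BPA, an inhibitor of the complement cascade, rose by 4.69 ± 0.32 (limma adjusted p = 5.89e-05), and LBP, the lipopolysaccharide binding protein, by 4.41 ± 0.44 (limma adjusted p = 2.18e-04). In the A549 libraries labelled knockout 8 rose and 1 fell (median 2.13, with 10.9% and 9.87% of all genes). Among the risen was the complement component C3, by 3.60 ± 0.23 (limma adjusted p = 1.84e-04). In H2023 4 rose in wild type (median 0.60, with 3.96% of all genes) and 8 in the libraries labelled knockout (median 1.12, with 7.68%). None fell in H2023, where 17.4% and 19.2% of all genes did. C4BPA and the complement factor CFB were among the risen genes in all 4 comparisons.

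Against wild type, the list did not go with SAA1 in H2023. By the authors' deposited table, of 16 tested 1 was higher in H2023 oncospheres labelled knockout, C3 (log2 fold change 0.79, the authors' adjusted p = 0.00644), and 3 were lower, where 2.22% and 2.85% of all genes were. The lower ones were the fibrinogen chains FGB and FGG and the orosomucoid ORM1, which had a log2 fold change of -2.79 (the authors' adjusted p = 1.31e-07). In H2023 normal culture 9 of 13 tested were lower and none was higher, against 6.97% and 3.84% of all genes. In A549 2 were higher and 6 lower of 12 tested in normal culture, against 11.2% and 10.9% of all genes, and 2 were higher and 8 lower of 16 in oncospheres, where 9.29% and 11.4% of all genes were. The fibrinogen chain FGB fell there from 710.73 and 878.24 TPM to 5.44 and 3.92 (log2 fold change -7.45 in the authors' deposited table, adjusted p = 9.83e-249).

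**Figure D5:**
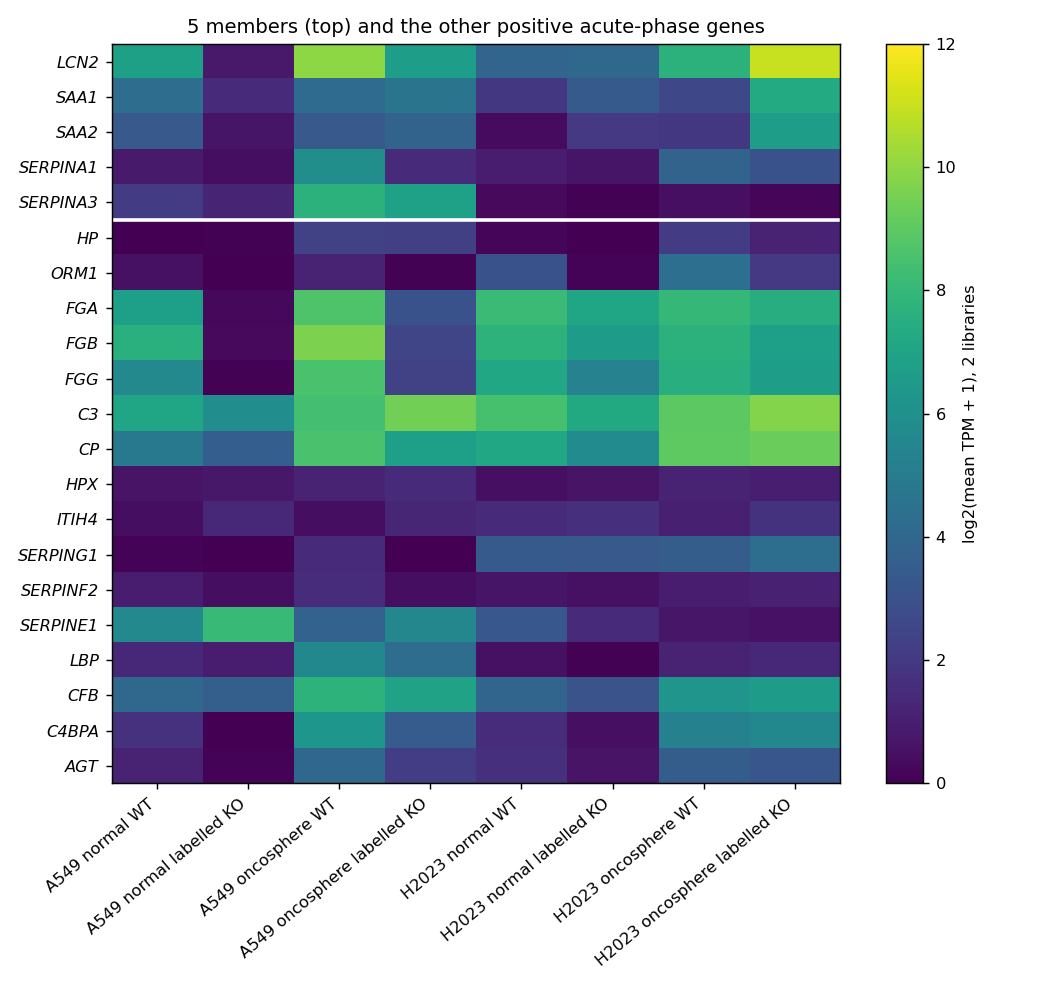
Group mean levels as log2(mean TPM + 1) of the 5 genes (above the white line) and of 16 other positive acute-phase genes, in 8 groups of 2 libraries (colour scale at the right). SAA1 and SAA2 peak in the H2023 oncospheres labelled knockout, where FGA, FGB and FGG do not, and the fibrinogen chains are near 0 in A549 normal culture labelled knockout.

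Genes of the negative acute phase, whose plasma proteins fall in inflammation, were not called lower in any of the 4 culture comparisons. Of all genes 21.6% and 9.87% were called lower in A549 wild type and labelled knockout, and 17.4% and 19.2% in H2023. For 5 genes, 0 called lower therefore says little. All 5 of the 5 measured rose in A549 wild type (19% of all genes), among them albumin (ALB), from 0 and 0.43 to 24.5 and 19.12 TPM (difference 4.24 ± 0.26, limma adjusted p = 4.87e-05). In the A549 libraries labelled knockout 1 of 5 rose (median difference 0.66, 10.9% of all genes), where 4 of the 5 members rose. In H2023 3 rose in wild type (3.96% of all genes) and 4 in the libraries labelled knockout (7.68%). In H2023 wild type ALB went from 1.47 and 3.57 to 335.91 and 268.77 TPM (difference 6.49 ± 0.77, limma adjusted p = 0.00418). In the H2023 oncospheres labelled knockout it was at 18.71 and 2.38 TPM, lower than in wild type in the authors' deposited table (log2 fold change -5.22, adjusted p = 2.07e-05), in the libraries where SAA1 was highest.

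Of the epithelial antimicrobial proteins, with which LCN2 is often secreted, 10 of 17 were measured. All 10 rose in A549 wild type in oncospheres, 7 in A549 labelled knockout, 3 in H2023 wild type and 7 in H2023 labelled knockout, and none fell. The shares of all genes called higher in these comparisons were 19%, 10.9%, 3.96% and 7.68%, and of those called lower 21.6%, 9.87%, 17.4% and 19.2%. The calprotectin subunit S100A9 rose by 7.02 ± 0.48 in A549 wild type (limma adjusted p = 6.05e-05), from 1.05 and 5.55 to 512.36 and 439.34 TPM. The protease inhibitor SLPI was lower in A549 normal culture labelled knockout, at 1.92 and 3.03 against 51.75 and 104.93 TPM (log2 fold change -4.85 in the authors' deposited table, adjusted p = 2.47e-28). LCN2 was low in the same libraries. In H2023 SLPI did not go with LCN2. It was lower in normal culture labelled knockout (-1.54, the authors' adjusted p = 1.09e-08), where LCN2 overlapped with wild type. In H2023 oncospheres SLPI was at -0.03 (the authors' adjusted p = 0.987), where LCN2 was higher. Of the list 4 of 4 tested were lower in H2023 normal culture (6.97% of all genes). In H2023 oncospheres 2 of 8 were higher and 2 lower, against 2.22% and 2.85%.

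The other serpins of the chromosome 14 cluster and the other lipocalins were taken as the members' relatives. Of 4 serpins measured, all 4 rose in A549 wild type in oncospheres and 1 in each of the other 3 comparisons, SERPINA5 in A549 labelled knockout and SERPINA6 in H2023. SERPINA6, the corticosteroid-binding globulin, rose by 2.58 ± 0.29 in A549 wild type (limma adjusted p = 3.68e-04) and by 3.56 ± 0.51 in H2023 wild type (limma adjusted p = 0.00692). It was therefore high in H2023 oncospheres, at 28 and 20.14 TPM in wild type. Of the members in the same cluster, SERPINA3 was at 0.41 and 0.43 TPM there and SERPINA1 at 11.72 and 14.24. Of 7 other lipocalins 6 rose in A549 wild type, 3 in A549 labelled knockout, 1 in H2023 wild type and 3 in H2023 labelled knockout. For these counts of serpins and lipocalins the shares of all genes called higher were 19%, 10.9%, 3.96% and 7.68% in the same order. The lists are not separate sets, as SERPINA6 and RBP4 are also counted among the negative acute-phase genes. The retinol carrier RBP4 was lower in the libraries labelled knockout in both lines, at 44.91 and 9.24 against 245.4 and 313.03 TPM in H2023 oncospheres (log2 fold change -3.46 in the authors' deposited table, adjusted p = 0.0215), while LCN2 was higher there.

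Receptors, partners and secretion factors of the members were measured for 15 of 18 genes. In H2023 oncospheres labelled knockout 2 of 12 tested were higher and none was lower by the authors' deposited table, against 2.22% and 2.85% of all genes. In A549 oncospheres 4 of 15 were higher and 2 lower in the authors' deposited table, against 9.29% and 11.4%. TLR4, a receptor reported to respond to serum amyloid A, was higher in A549 oncospheres labelled knockout, where SAA1 overlapped with wild type. It was at 3.46 and 2.43 against 0.34 and 0.62 TPM (log2 fold change 2.21 in the authors' deposited table, adjusted p = 1.03e-06). TLR4 was also higher in the H2023 libraries labelled knockout, at 2.27 and 3.73 against 0.42 and 0.1 TPM in oncospheres (log2 fold change 3.61 in the authors' deposited table, adjusted p = 5.37e-08). LRP1, which takes up complexes of serpins with proteases, was at 56.59 and 54.32 against 27.55 and 23.07 TPM there (log2 fold change 1.00 in the authors' deposited table, adjusted p = 2.79e-06). In A549 oncospheres LRP1 went the other way, at 14.22 and 11.15 TPM in the libraries labelled knockout against 22.34 and 26.77 in wild type (log2 fold change -0.93 in the authors' deposited table, adjusted p = 1.16e-04). In A549 normal culture it was higher, at 16.34 and 20.38 against 3.07 and 4.39 TPM (log2 fold change 2.23 in the authors' deposited table, adjusted p = 1.22e-32). The LCN2 receptor SLC22A17 rose in oncospheres in A549 wild type by 1.64 ± 0.24 (limma adjusted p = 0.00131) and in H2023 wild type by 0.73 ± 0.16 (limma adjusted p = 0.0253).

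Markers of other cells that make these proteins were read beside the members. The libraries are of cultured cell lines, so these markers are read as genes that the line itself expresses. In bulk RNA, fewer cells of the line that express a gene and less RNA per cell cannot be told apart. Of 7 hepatocyte markers 3 were measured (CPS1, APOH and ALB). Their medians over the libraries were 313.6, 4.55 and 1.265 TPM, so CPS1 weighs most in a sum. The summed level was 46.6 to 49.0 TPM in A549 wild type in normal culture and 192 to 317 in oncospheres. It was 125 to 170 TPM in A549 normal culture labelled knockout, where LCN2 was lowest, and 464 to 646 TPM in the H2023 oncospheres labelled knockout against 1110 to 1462 in wild type. Of 6 leukocyte markers ELANE, CD14 and CD68 were measured, and PTPRC, MPO and CSF3R were not analysed here. Their sum was 46.2 to 59.3 TPM in A549 wild type in normal culture and 145 to 227 in oncospheres, and ELANE did not exceed 1.68 TPM in any library. In H2023 oncospheres the sum was 31.5 to 90.4 TPM in wild type and 72.3 to 129 in the libraries labelled knockout. From normal culture to oncospheres this sum rose with LCN2 in A549 wild type. It also rose in A549 labelled knockout, from 37.0 to 48.6 TPM up to 59.1 to 79.2. In H2023 labelled knockout it was at 32.7 to 38.8 TPM in normal culture and likewise rose. In H2023 wild type, at 37.1 to 40.5 TPM in normal culture, the cultures overlapped. The medians over the libraries were 40.27 TPM for CD68, 4.33 for CD14 and 0.34 for ELANE, so CD68 weighs most in the sum. Of the epithelial markers, KRT8, KRT18 and KRT7 had medians over the libraries of 3471, 2456 and 1324 TPM. KRT19, CDH1 and EPCAM had medians of 113.8, 33.65 and 10.6 TPM, so the sum mostly reads KRT8, KRT18 and KRT7. The summed level of the 6 epithelial markers moved with members in some comparisons of the labels, but not in most comparisons of the cultures. It was 2571 to 5009 TPM in A549 normal culture labelled knockout against 9175 to 9346 in wild type, and LCN2, SAA1 and SAA2 were low in the former. In H2023 oncospheres it was 7766 to 8273 TPM in the libraries labelled knockout against 4327 to 4565 in wild type, and the same 3 genes were high in the former. It was 12330 to 13030 TPM in H2023 normal culture labelled knockout against 8749 to 9397 in wild type, and 5659 to 7825 in A549 oncospheres labelled knockout against 6666 to 7544. From normal culture to oncospheres the epithelial sum fell in A549 wild type and in both labels of H2023, where LCN2 rose. Only in A549 labelled knockout did it rise along with LCN2. The part of these marker genes in the members' levels was not tested.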

How the data were processed

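RNA was sequenced from stranded TruSeq mRNA libraries, per the labels' protocols. HISAT2, StringTie and GRCh38 are named in the submitters' processing notes, without versions. The authors deposited 4 tables, 1 per line and culture, with TPM per library. Per the file headers they also hold a mean normalized count (a signal), a log2 fold change with its standard error, a statistic (a score), and p-values, in columns named as DESeq2 names them. The statistic has the sign opposite to the deposited log2 fold change, which was used. The line of a library was read from its table, the rest from its column. 119 identifiers on several rows were used once. 62 genes had no symbol.

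log2(TPM + 1) was fitted with limma 3.58.1 (trend, two-sided, threshold 0.05) in R 4.3.3, tested on simulated data. Knockout fits used 4 libraries, culture and line fits 8, and the interaction 16. Named genes are the 5 members, up to 4 genes per list and comparison with the largest called difference and a group mean of at least 1 TPM, and 3 likest genes per member with a group mean of at least 5 TPM. Members and lists were chosen with earlier results of these data known. The summed TPM per library was 991838 to 998125. Read depth is unknown. Tables were normalized separately, and levels across them rest on TPM. The alternatives were another pseudocount, a filter, the replicate block, 2 scalings, summed SAA genes, the deposited statistics, a fit over 16 libraries and leaving out each library. 1 listed factor is counted in its list but not reported here.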

Additional observations from a re-analysis of the deposited data

Results flagged for a closer look

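The difference between libraries labelled knockout and wild type had opposite signs in the 2 lines, with every library on its side, for SAA1 in normal culture (-3.03 in A549, 1.46 in H2023), for SAA2 in normal culture (-2.65 in A549, 1.62 in H2023) and for LCN2 in oncospheres (-3.40 in A549, 3.18 in H2023), all in log2(TPM + 1). The difference between the lines was not tested, because this contrast chose the genes. Among all genes 34.6% were lower without overlap in A549 normal culture and 26.1% were higher without overlap in H2023 normal culture. In oncospheres these shares were 27.8% and 28.6%. How many genes did both was not counted. SAA2 was near the floor in H2023 wild type in normal culture, at 0.5 and 0.09 TPM.

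The rise from normal culture to oncospheres differed between wild-type lines in the limma test of the difference itself for SERPINA1 (-2.19, H2023 minus A549, adjusted p = 0.0236) and SERPINA3 (-5.30, adjusted p = 7.02e-05). SERPINA1 lost this call under 6 of 13 alternatives, with a limma adjusted p of up to 0.177, and SERPINA3 under none of 13.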

How the results depend on the processing

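Directions and calls of the culture comparisons held for LCN2 in all 4, and for SAA1 and SAA2 in the libraries labelled knockout, under every alternative run. The summed SAA genes kept the direction of SAA1. The text names the member calls that were lost or gained. Members past the threshold ranged, leaving out 1 library, from 2 to 4 in H2023 wild-type culture, from 1 to 5 between lines in oncospheres, and from 1 to 2 in the interaction, which had 1 with a pseudocount of 0.1 TPM. A lone library was assumed to vary like the other groups.

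Counts of genes called between labels (limma, main 1971 and 2413 in A549 normal culture and oncospheres, 0 and 0 in H2023, where 3314 and 2828 had an unadjusted p below 0.05) were 3233, 3780, 546 and 1014 in the fit over 16 libraries, and 3639, 3628, 1665 and 816 in the authors' deposited table. With genes of at least 1 TPM the H2023 counts were 481 and 6, and with median centring 322 and 1. Leaving out 1 library gave 0 to 0 in A549 normal culture and 0 to 38 in A549 oncospheres. For culture it gave 4924 to 6105 in A549 wild type, 2010 to 2436 in A549 labelled knockout, 1697 to 2630 in H2023 wild type and 2090 to 3171 in H2023 labelled knockout, against 7392, 3784, 3901 and 4895, and for the interaction 1363 to 2262 against 2574. Leaving out mitochondrial genes gave 2285 in H2023 wild type, against 3901.

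Whether replicate numbers pair libraries is not given by the labels. Same-numbered libraries correlated at 0.0766 and 0.124 (A549 normal culture and oncospheres) and at 0.0371 and 0.476 (H2023) in their deviations, the highest in H2023 oncospheres. The replicate block gave 2109, 2774, 0 and 0 genes between labels and lost the call of SAA2 between lines in oncospheres (adjusted p = 0.0541). A pseudocount of 0.1 TPM raised the size of low genes' differences, to -4.72 for SAA2 and -3.32 for SERPINA3 between lines in normal culture. SERPINA3 in H2023 was at or under 0.43 TPM, which limits what can be read from it.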
